A study of Mus musculus with 6 samples.

Results

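The 14 long non-coding RNA (lncRNA) transcripts described here lie inside Ptprd and Ctnna2, a pair of very large cell adhesion genes, and were measured in mouse pancreatic islets on chow or a high-fat diet. They were chosen by position from a table of 3093 transcripts: those whose interval overlapped the GENCODE M21 body of Ptprd or of Ctnna2 more than any other gene. Each gene held 7 of them, all wholly inside the gene and with no other annotated gene at the same place. A gene name below therefore says where a transcript lies, and the spliced messenger RNA of the gene was not measured. No further transcript of the table lay within 1 Mb of either gene.

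The islets came from C57BL/6 mice fed for 8 weeks with normal chow (NCD, 3 libraries) or with a high-fat diet, which the labels write as high-fed (HFD, 3 libraries). The labels name no transgene, sex or age and do not say whether islets of several mice were pooled. The table gave 1 FPKM (fragments scaled to transcript length and to the total mapped) for each diet, so no value below has a standard deviation, a replicate count or a test between diets. Both genes were taken up with their diet values known, and their levels are given as a description.

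PTPRD belongs to the LAR family of receptor tyrosine phosphatases, membrane proteins with an adhesive outer part and a phosphatase part inside the cell, which organise presynaptic contacts by binding partners such as the SLITRK proteins and IL1RAPL1. CTNNA2 is the neuronal alpha-catenin, which links the cadherin and beta-catenin complex at cell contacts to the actin cytoskeleton. Islet endocrine cells share much of their secretory machinery with neurons and hold together through cadherins. Both genes have very long introns, and RNA from such introns is the part of the gene seen here.

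The Ptprd transcripts were all lower on the high-fat diet, 6 of 7 by at least 2-fold, with a median log2 ratio of -2.64. The 6 include the 206-base transcript listed at 0 in HFD, for which no fold is given below. In HFD the 206-, 349-, 508- and 3864-base ones were under 0.410 FPKM, a level that the larger value of every listed transcript reached. They were thus listed through their chow values. The Ctnna2 transcripts differed less between the diets: 6 of 7 were lower, 1 of them by at least 2-fold, and 1 was higher, with a median of -0.38. Of all 3093 transcripts, 41.9% passed the 2-fold rule towards lower and 6.27% towards higher values on the high-fat diet, and the median log2 ratio was -0.82. The ratio divides the HFD by the NCD level after 0.1 FPKM was added to both, so changes of low transcripts are understated. Relative to the median of the table Ptprd thus lay lower and Ctnna2 higher. In whole-islet RNA, fewer cells of a type and less RNA per cell cannot be told apart.

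The promoter of Ctnna2 is given from RefSeq (GRCm38.p6, chr6:77979618-77979917, minus strand, 250 bases before to 50 after the gene start). It is shown because every Ctnna2 transcript below is placed by its distance downstream of this end of the gene, and the capitals mark CG dinucleotides.
Ctnna2 promoter: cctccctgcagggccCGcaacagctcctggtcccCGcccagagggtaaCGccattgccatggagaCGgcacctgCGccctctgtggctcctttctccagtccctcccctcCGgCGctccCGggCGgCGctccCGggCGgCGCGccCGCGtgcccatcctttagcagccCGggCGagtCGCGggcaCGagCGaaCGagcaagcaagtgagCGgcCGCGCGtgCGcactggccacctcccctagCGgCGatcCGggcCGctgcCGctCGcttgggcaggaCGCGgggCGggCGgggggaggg
The window held 38 CG dinucleotides (the letters CG, the same on both strands) and was 75.3% G or C. Of 32851 RefSeq promoter windows of the same length, 4.95% held at least as many, and the median window held 7 and was 52.7% G or C. This start lies 417 kb from the nearest Ctnna2 transcript of the table, so the data do not bear on the promoter directly.

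Ptprd spans 2271 kb on the minus strand of chromosome 4 (75941238 to 78211961, GRCm38, ENSMUSG00000028399.18), and its 7 transcripts lay in 3 introns without touching an exon of any isoform. Following the direction of the gene, the first intron of 286 kb held 3 of them, at 38.8, 111 and 115 kb from the gene start. A single transcript lay 1250 kb into the gene in an intron of 216 kb. The other 3 lay 1762 to 1797 kb into the gene, in an intron of 105 kb that begins just after the first exon of the protein-coding isoform Ptprd-206. For the single transcript and the 3 of the first intron, the nearest annotated start upstream was that of Ptprd-215, a retained-intron isoform.

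Near the gene start, a 395-base transcript at chromosome 4: 78172764 to 78173158 was at 5.51 FPKM on chow and 0.797 on the high-fat diet, a log2 ratio of -2.64. A 206-base transcript at 78100969 to 78101174 was at 66.9 FPKM in NCD and listed at 0 in HFD. Next along the gene, a 508-base transcript at 78096633 to 78097140 was at 2.54 and 0.0567 FPKM, a log2 ratio of -4.07. The 395- and 508-base transcripts were thus well below their chow values on the high-fat diet.

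The 66.9 FPKM was the highest level in either gene, but it belongs to a class of span in which FPKM is coarse. Among the 17 other transcripts within 10 bases of that span, the median in NCD was 36.0 FPKM and 6 were at or above 66.9. In HFD 9 of the 17 were listed at 0, in NCD 3 were, and the lowest HFD value above 0 was 9.67. No fold is given for it.

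In the middle of Ptprd, the 349-base transcript at 76961777 to 76962125 was at 5.77 FPKM on chow and 0.364 on the high-fat diet, a log2 ratio of -3.66. The 92 other transcripts within 10 bases of its span had medians of 4.29 and 1.84 FPKM. Its chow level was therefore near the median of transcripts as short, and its HFD level well under their HFD median. In HFD 3 of the 92 were listed at 0, and the lowest value above 0 was 0.171 FPKM. No counting interval was estimated for spans under 400 bases.

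The 3 transcripts downstream of the Ptprd-206 start were the longest of the gene and the least different between the diets. The first, of 18046 bases (76431584 to 76449629), began 13 bases after the exon, or 351 bases from the annotated start of that isoform, and covered 17.1% of the intron. It was at 2.16 FPKM on chow and 1.03 on the high-fat diet, 47.7% of the chow value, and with the added 0.1 it fell just short of the 2-fold rule with a log2 ratio rounding to -1. A 2190-base transcript 30.4 kb from that start (76417370 to 76419559) was at 2.74 and 0.833 FPKM, 30.4% of the chow value. A 3864-base transcript 34.8 kb from it (76411282 to 76415145) was at 1.83 and 0.338 FPKM, 18.5%.

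In this intron the HFD share of the chow value thus went down with distance from the isoform's start, while the chow values showed no such order. Fragment numbers were estimated from the steps in the low FPKM values, taking each transcript as unspliced and each column as counted from 1 pool. They came to about 2438 and 1383 fragments for the longest transcript, 331 and 120 for the next, and 415 and 91.4 for the farthest. The 95% counting intervals of the log2 ratio, taken without the added 0.1, were -1.16 to -0.97, -2.04 to -1.42 and -2.79 to -2.11. These 3 intervals do not overlap each other, which describes counting precision only. The 508-base transcript of the first intron rested on 35.3 fragments in NCD and 0.989 in HFD, with an interval of -10.8 to -2.88. All such intervals cover counting error only and say nothing of the spread between mice.

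**Figure D1:**
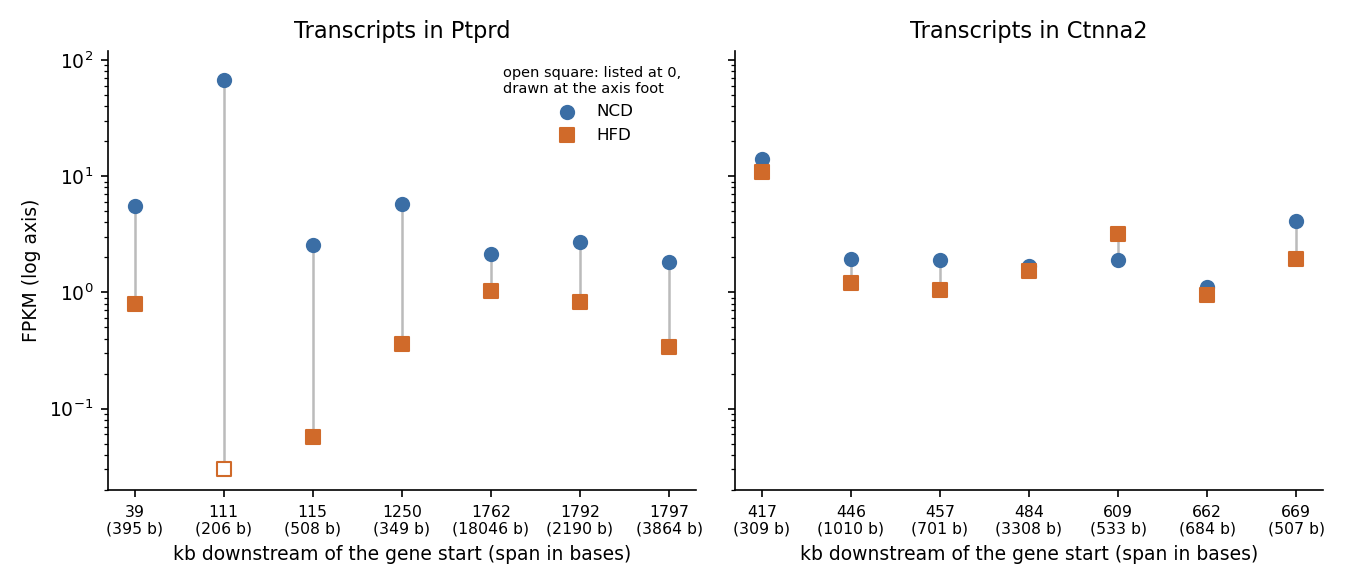
FPKM (log axis) in NCD (circles) and HFD (squares) of the 7 transcripts in each gene, in order from the gene start, with the distance in kb and the span in bases below. In Ptprd every square lies below its circle and the open square is a transcript listed at 0. In Ctnna2 the symbols lie close together and that at 609 kb is higher in HFD.

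Ctnna2 spans 1098 kb on the minus strand of chromosome 6 (76881637 to 77979699, ENSMUSG00000063063.12). All 7 of its transcripts lay in 1 intron of 455 kb (77143944 to 77598745), within a stretch of 253 kb. The same intron holds Lrrtm1, a synaptic adhesion gene on the opposite strand (77242689 to 77257791). The Ctnna2 transcripts all lay on the side of Lrrtm1 that faces the start of Ctnna2, and none overlapped it.

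In the direction of the gene, the first Ctnna2 transcript, of 309 bases (77562751 to 77563059), was the highest, at 14.1 FPKM on chow and 10.8 on the high-fat diet, a log2 ratio of -0.38. Of the 66 other transcripts within 10 bases of its span, 4 reached that chow level, and their medians were 4.47 and 1.84 FPKM. It thus stood above the median of transcripts as short in both diets.

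The next 3 lay 446 to 484 kb from the gene start and had near-equal chow levels. The 1010-base transcript (77533183 to 77534192) was at 1.94 FPKM on chow and 1.21 on the high-fat diet, a log2 ratio of -0.64. The 701-base transcript (77522207 to 77522907) was at 1.89 and 1.06 FPKM, a ratio of -0.78. The 3308-base transcript (77492469 to 77495776), the longest in Ctnna2, was at 1.68 and 1.53 FPKM, 91.1% of the chow value. Their chow levels lay close together, while the HFD share of the chow value ran from 56.0% to 91.1%.

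The 533-base transcript at 77370202 to 77370734 was the only member higher on the high-fat diet, at 1.91 FPKM on chow and 3.21 on the high-fat diet, a log2 ratio of 0.72. The farthest pair lay 662 and 669 kb from the start. Of these, the 684-base transcript (77317072 to 77317755) was the lowest in chow, at 1.12 FPKM against 0.946 in HFD. The 507-base transcript (77310464 to 77310970) was at 4.11 and 1.94 FPKM, a log2 ratio of -1.05 just inside the 2-fold rule. The Ctnna2 diet ratios did not follow the distance along the gene, nor did those of all 7 Ptprd transcripts. The order in the Ptprd-206 intron rests on the transcripts there alone, of which the nearest to the start was the longest.

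Estimated fragments set the counting precision of these ratios. The interval of the higher transcript, from 29.6 and 62.0 fragments, was 0.08 to 1.41 and lay above 0. Those of the 507-, 701- and 1010-base transcripts lay below 0, at -1.73 to -0.43, -1.49 to -0.16 and -1.16 to -0.21. These signs hold for the values as deposited: after median centring the 701- and 1010-base ratios were 0.039 and 0.18, and after quantile normalization 0.067 and 0.18. The intervals of the 684- and 3308-base transcripts included 0, at -1.04 to 0.56 and -0.35 to 0.09. The transcripts were compared with their values known, so these intervals describe counting precision only.

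The deposited table has no strand column, but its identifiers carry one. On each of the 21 chromosomes with more than 1 transcript, the locus numbers ran along the chromosome from its low to its high end and then started again, giving 2 series. Of 1981 intronic transcripts whose host genes lie on 1 strand, 1850 (93.4%) were in the first series in a plus-strand gene or in the second series in a minus-strand gene. All 4 intervals of the table that equal an annotated transcript were in the series of its strand as well. All 14 members were in the second series, and both genes lie on the minus strand. By this numbering the transcripts in Ptprd and Ctnna2 run in the direction of the gene. A sense transcript wholly within an intron cannot be told apart here from the unspliced RNA of the gene.

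**Figure D2:**
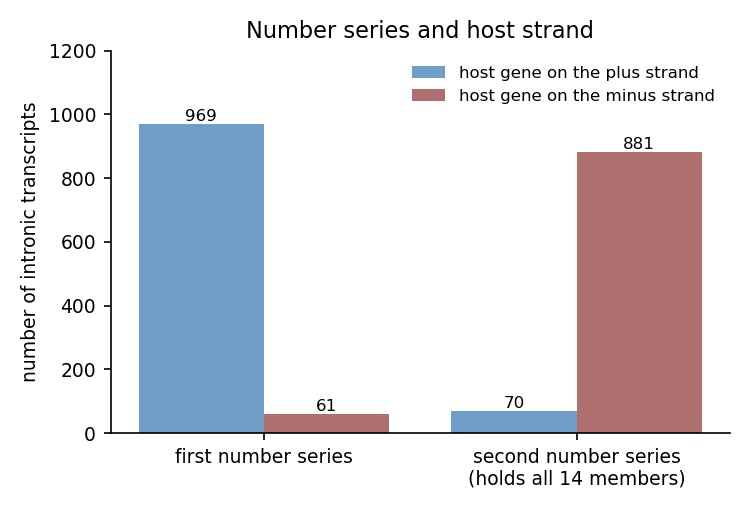
Number of intronic transcripts in each of the 2 number series, by the strand of the host gene. The first series held 969 transcripts in plus-strand genes and 61 in minus-strand genes, the second 70 and 881, and the Ptprd and Ctnna2 transcripts are all in the second.

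The numbers also show that the list of loci is not complete along the genes. From the first to the last member they run over 9 loci in Ptprd and 13 in Ctnna2, of which 7 and 7 are in the table, and the others are not analysed here.

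Read against transcripts of the same kind, Ptprd remained low and Ctnna2 high. Of the 1900 sense intronic transcripts, 49.6% were at least 2-fold lower on the high-fat diet, 3.37% at least 2-fold higher, and the median log2 ratio was -0.99. In the 27 host genes of 1 Mb or more, 60.7% of 150 such transcripts passed the rule towards lower and 2.00% towards higher values. Without the 14 members the median there was -1.22 over 136 transcripts. By chow level the members were ordinary: the median over 7 was 2.74 FPKM in Ptprd and 1.91 in Ctnna2, against 2.85 for all sense intronic transcripts. On the high-fat diet the medians were 0.364, 1.53 and 1.39 FPKM. The HFD values of the 206-, 349-, 508- and 3864-base Ptprd transcripts, and so the Ptprd median, lay under 0.410 FPKM. The larger value of every listed transcript reached that level, so these were listed through their chow values. The wider gap between the 2 genes on the high-fat diet is therefore a description only.

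**Figure D3:**
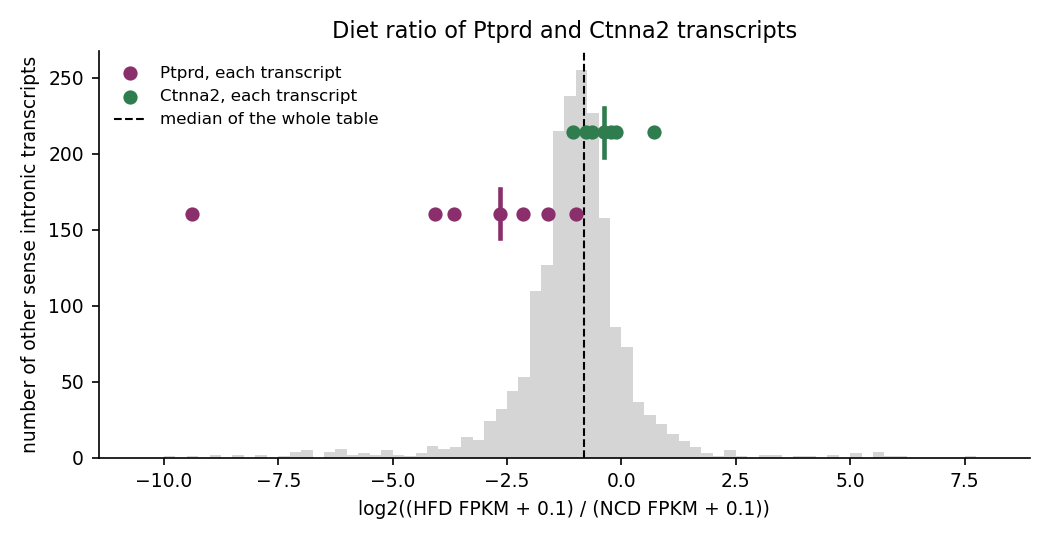
Log2 ratio of each Ptprd and Ctnna2 transcript (points; vertical bars mark the gene medians of -2.64 and -0.38) over a histogram of the other sense intronic transcripts, with the table's median of -0.82 as a dashed line. All 7 Ptprd points lie below the dashed line, though that of the 18046-base transcript is near the middle of the histogram. Of the 7 Ctnna2 points, 6 lie above the dashed line.

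The median ratio differed little below 600 bases and was less low at longer spans. Sense intronic transcripts of 200 to 300 and 300 to 400 bases had median log2 ratios of -1.20 and -1.16. Those of 400 to 600 bases had a median of -1.21 (quartiles -1.80 and -0.57). Those of 1000 to 5000 bases had a median of -0.86 (quartiles -1.25 and -0.53), and those of 5000 bases or more -0.74 (quartiles -1.07 and -0.49). Of the 6 Ptprd transcripts above 0 in HFD, those of 349, 395 and 508 bases had the lowest ratios. With spans of at least 400 bases only, the Ptprd median was -1.87 over 4 transcripts and the Ctnna2 median -0.43 over 6. Of the Ptprd transcripts above 0 in HFD, the 349- and 395-base ones lay below the lower quartile of spans of 300 to 400 bases, -1.92, and the 508-, 2190- and 3864-base ones below that of their span class, whereas the 18046-base one lay between the quartiles of its own. The part of span in the gene medians was not tested.

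**Figure D4:**
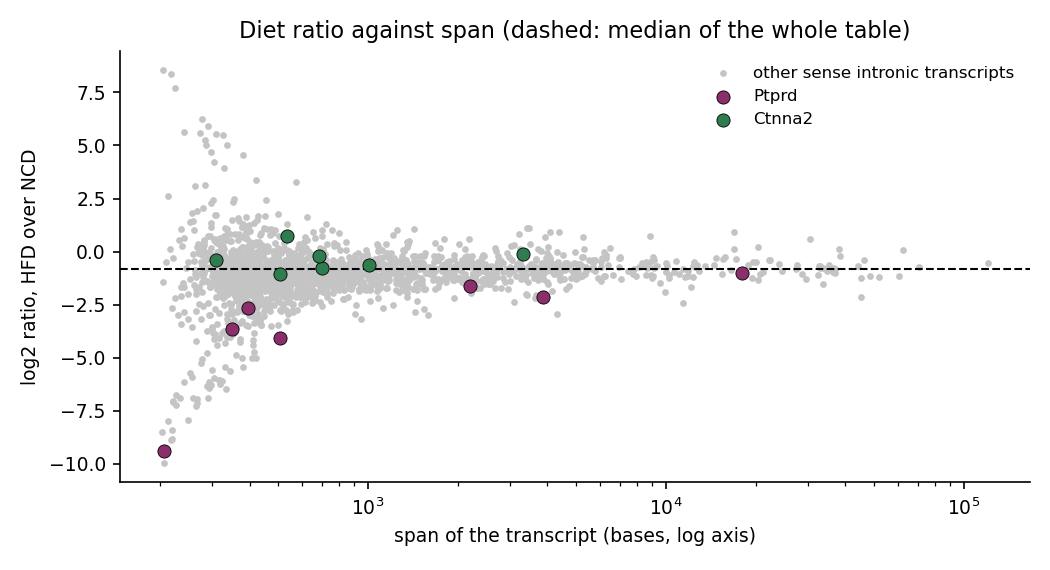
Log2 ratio against span (log axis) for the Ptprd and Ctnna2 transcripts and the other sense intronic transcripts; the dashed line is the table's median of -0.82. Ratios scatter more widely among short spans, and the Ptprd points of 206 to 508 bases lie below those of the longer Ptprd transcripts; the lowest point is the transcript listed at 0 in HFD.

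Among the 72 genes with at least 5 transcripts, Ptprd had the 3rd lowest median log2 ratio and Ctnna2 ranked 65th from the lowest. The ADP-ribose hydrolase gene Macrod2 (-3.38 over 5 transcripts) and the tubulin-modifying enzyme gene Agbl4 (-1.65 over 11) bracketed Ptprd among the hosts of 1 Mb or more. Of the 14 such hosts in this set, Ctnna2 had the second highest median after Kcnip4, a potassium channel-interacting protein gene (0.08 over 11). Where genes tied in their overlap, the protein-coding and then the longer one was taken, which touched no member.

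**Figure D5:**
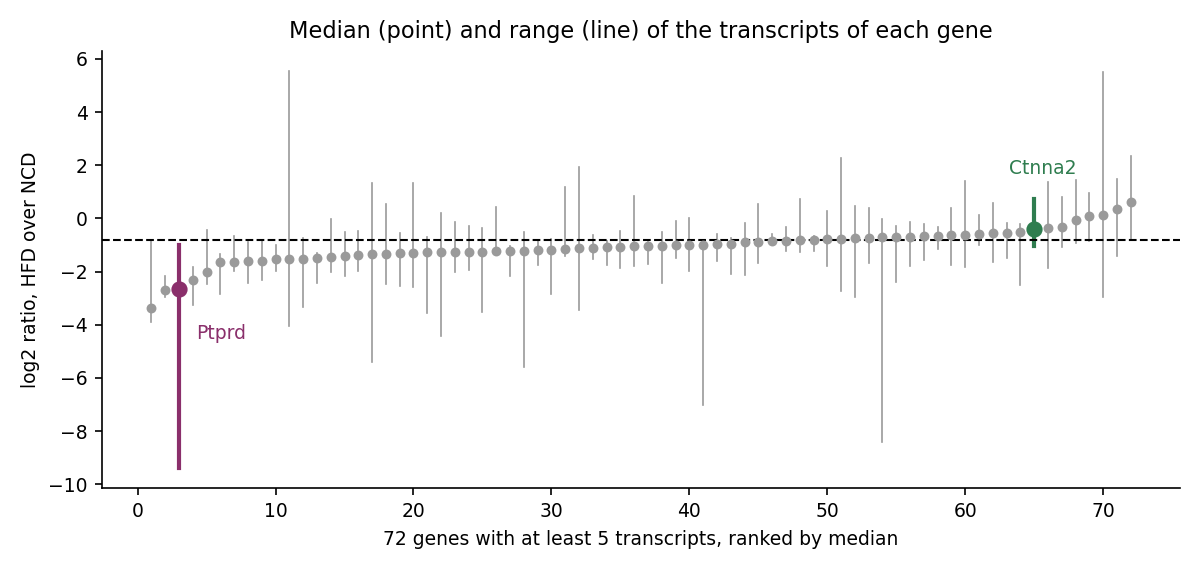
Median (point) and range from the lowest to the highest transcript (line) of the log2 ratio in each of 72 genes with at least 5 transcripts, ordered by median, with the table's median of -0.82 as a dashed line. Ptprd is 3rd from the left with a wide range whose low end is the transcript listed at 0 in HFD, and Ctnna2 is 65th.

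The genes most like each were named by the distance between gene medians of log2 (FPKM + 0.1) in the 2 columns. Nearest to Ptprd were Zbtb16, a zinc-finger transcription factor gene (distance 0.23, medians 2.56 and 0.302 FPKM), the microtubule regulator gene Nav3 (0.32, medians 2.70 and 0.479 FPKM) and Dpp10, which encodes a potassium channel partner protein (0.37, medians 2.22 and 0.446 FPKM). Nearest to Ctnna2 were the nuclear receptor gene Hnf4g (0.25, medians 2.27 and 1.44 FPKM), the potassium channel gene Kcnb2 (0.26, medians 2.25 and 1.69 FPKM) and the zinc-finger gene Zfp804b (0.30, medians 2.11 and 1.26 FPKM). A likeness over 2 columns is a description of level and ratio only.

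Other adhesion genes gave the setting of the pair. Of 104 further genes on lists of receptor phosphatases, their partners, catenins, cadherins and synaptic adhesion genes, 19 held 31 transcripts. Of these 31, 11 (35.5%) were at least 2-fold lower and 0 at least 2-fold higher, and the median log2 ratio was -0.70. Both the share and the median lay close to those of the table. Some of the 31 overlapped annotated exons, as in Cntn1, Ncam1, Cdh2, Ppfibp1, Ncam2 and Sdk1, whereas all members in Ptprd and Ctnna2 were intronic.

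In the family of Ptprd, neither Ptprs nor Ptprf, the other LAR receptors, held a transcript. Of their ligands and partners, only Ppfibp1, a liprin-beta gene, held any: its 3 had a median of -0.39, and the pair with the highest level was at 2.12 and 1.82 FPKM on chow and 1.31 and 1.36 on the high-fat diet. The 4 transcripts in other receptor phosphatase genes were lower by less than 2-fold, with a median of -0.17. In Ptprj the transcript was at 4.10 FPKM on chow and 2.47 on the high-fat diet, a log2 ratio of -0.71. In Ptprg the values were 1.73 and 1.43 for the higher of 2, and for the antisense transcript in Ptprt they were 0.685 and 0.664. None of these 7 transcripts was at least 2-fold lower, against 41.9% of all transcripts and 36.1% of those of 500 bases or more. In Ptprd 6 of the 7 were, among them the 206-base one listed at 0 in HFD. The spans of the 7 transcripts outside Ptprd, 795 to 7024 bases, were longer than most of those in Ptprd. The difference was not tested.

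Around Ctnna2, the other alpha-catenins Ctnna1 and Ctnna3, the related Ctnnal1 and vinculin (Vcl) held no transcript. Among the beta- and p120-type catenins only Ctnnd2, delta-catenin, held one, at 1.80 FPKM on chow and 1.01 on the high-fat diet (log2 ratio -0.77). Of the 5 transcripts in cadherin genes, 4 were at least 2-fold lower, against 41.9% of all transcripts, and the median was -1.76. These 4 all spanned under 500 bases, where 52.8% of the table passed that rule. In Cdh4, R-cadherin, the values were 5.86 and 1.66 FPKM, and the Cdh2 (N-cadherin) transcript, antisense to its gene, was at 0.846 and 0.332 FPKM. That in the anchored cadherin gene Cdh13 was at 14.1 FPKM in NCD and listed at 0 in HFD over 266 bases. In the protocadherin gene Pcdh9 the 354-base transcript was at 3.64 and 0.171 FPKM and the 798-base one at 1.30 and 0.806 FPKM.

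The synaptic adhesion genes held 18 transcripts in 10 genes, 7 of them at least 2-fold lower, near the 41.9% of all transcripts, with a median of -0.71. The immunoglobulin-type adhesion gene Ncam2 was at 7.19 and 0.679 FPKM in the higher of its 2 transcripts and 5.14 and 1.02 in the other. For Nlgn1, a neuroligin gene, the values were 5.05 and 1.03 FPKM. The pair in Dscam, another immunoglobulin-type gene, was at 4.46 and 0.952 FPKM on chow and 1.09 and 0.311 on the high-fat diet. In the contactin gene Cntn1 the pair was at 3.15 and 1.97 FPKM on chow and 2.13 and 1.59 on the high-fat diet.

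The remaining synaptic genes included both transcripts that were higher in HFD. In Sdk1, a sidekick gene, the highest of 4 transcripts, an antisense and a sense one, were at 3.66 and 2.11 FPKM on chow and 3.38 and 1.24 on the high-fat diet, and a further antisense one was higher in HFD, at 0.447 and 0.730 FPKM. The contactin gene Cntn5 was at 0.310 and 0.419 FPKM. Its chow value lay under 0.410 FPKM, a level that the larger value of every listed transcript reached. The Cntn5 transcript was thus listed through its HFD value, which fixed its direction. Ncam1 was at 2.34 and 1.40 FPKM, Cntnap5b at 3.81 and 1.53, and the antisense transcript in Ntm at 2.41 and 0.655. Each of the 10 adhesion gene transcripts under 500 bases was at least 2-fold lower, against 1 of the 21 longer ones. That limit was chosen after the values were seen, and over the whole table the shares were 52.8% under 500 bases and 36.1% above.

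Cell type could not be checked from this table. Of 34 marker genes of 10 islet, pancreatic, vascular, immune and nerve cell classes, Epcam alone held a transcript, antisense in an intron, at 21.8 FPKM on chow and 5.01 on the high-fat diet. The hormone genes Ins1, Ins2, Gcg and Sst held none, nor did the Schwann and neuronal markers Sox10, S100b, Tubb3 and Elavl4. The part of cell composition in the Ptprd and Ctnna2 values was not tested.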

How the data were processed

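Islet total RNA was made into Illumina TruSeq libraries, per the labels' protocols. The authors deposited 1 table with an FPKM column per diet, per the file headers, and no value per library. Neither the aligner, assembler and quantifier nor the way libraries were combined is given in the sources used. GRCm38 and mm10 are the builds in the submitters' processing notes, and GENCODE M21 is on GRCm38. The genes and lists were chosen with earlier results of these data known.

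Transcripts were assigned to the gene covering most of their interval (pandas 2.3.3, Python 3.11.15). Sense and antisense were read from the 2 number series of the locus identifiers. No filter was applied beyond that of the deposited list, and the pseudocount was 0.1 FPKM. In every transcript listed, the larger of the 2 values was at least 0.410 FPKM. A transcript below that level on 1 diet was thus listed through its value on the other. With 1 value per diet no model was fitted, and a size rule of 2-fold was used. All members were described; of each list, the genes holding a transcript were named, with the 2 highest transcripts each and, chosen after their values were seen, the second Pcdh9 transcript, the higher antisense Sdk1 one and the single Epcam one. The values of 1 synaptic adhesion gene are not reported here.

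The depth was inferred from steps in low values of transcripts of 300 to 700 bases: totals of 63500000 (NCD) and 75500000 (HFD) fragments, with mean lengths of 290 and 278 bases. In transcripts left out of a fit to a random part, 31 of 46 NCD values (67.4%) and 71 of 80 HFD values (88.8%) below 8 fragments were within 0.15 of a whole number, where 30% would be by chance. The fit was tested on simulated data of a single pool of fragments, the form that the fit assumes. That test does not show that the deposited columns have this form. Fragments are given for spans of at least 400 bases, with exact conditional binomial 95% intervals.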

Additional observations from a re-analysis of the deposited data

How the results depend on the processing

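No paired analysis was possible because each diet has a single FPKM column, and no library could be left out for the same reason. All 7 Ptprd transcripts stayed below 0 in their 28 recomputed values, but most of these could not have come out otherwise. A change of pseudocount cannot change the sign of a ratio. Centring could not do so either, because all 7 ratios lay below the table's median. Only quantile normalization could have changed a sign, and all 7 were below 0 after it. The Ptprd median of -2.64 was -2.77 with a pseudocount of 0.01, -1.74 with 1, -1.83 after median centring, -1.79 after quantile normalization and -1.87 with spans of at least 400 bases. Leaving out each transcript in turn (leave-one-out) gave -3.15 to -2.39 for Ptprd and -0.51 to -0.30 for Ctnna2. The Ctnna2 median of -0.38 became 0.44 after median centring and 0.60 after quantile normalization, so it lies below 0 only without rescaling. Of its transcripts, those of 3308 bases (0.69 and 0.68), 684 bases (0.60 and 0.61), 309 bases (0.44 and 0.60), 1010 bases (0.18 and 0.18) and 701 bases (0.039 and 0.067) turned positive under the same settings; centring shifts every ratio by the table's median of -0.82. Of the 14 transcripts, 7 were at least 2-fold lower as reported, 8 with a pseudocount of 0.01, 6 with 1, and 5 after centring, after quantile normalization and under a 4-fold rule. Keeping intervals wholly inside the gene, or a mean of at least 1 FPKM, removed no transcript. Depth limits the short transcripts most, and the NCD total is the less certain, at 59500000 fragments when fitted to the random part.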

Other observations

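The strand read from the identifiers also separates intronic transcripts of other genes. The 154 intronic transcripts antisense to their host gene had a median log2 ratio of -0.58, with 60 passing the 2-fold rule towards lower and 27 towards higher HFD values. The 1900 sense ones had a median of -0.99, with 943 lower and 64 higher by that rule. Median levels in HFD were 1.43 FPKM for antisense and 1.39 for sense transcripts, and in NCD they were 2.41 and 2.85 FPKM. With 1 value per diet this difference was not tested.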
